A study of Homo sapiens with 2 samples.

Results

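The transcripts described here encode 8 chaperones and disulfide isomerases of the endoplasmic reticulum: HSPA5, HSP90B1, CALR, CANX, P4HB, PDIA3, PDIA4 and PDIA6. They were chosen by name, and their reads were taken from fixed hg19 spans on the strand of each gene. The spans held 5590 A positions listed in at least 1 library and 5355 listed in both, out of 4727008 and 2854489 on chromosomes 1 to 22 and X, called nuclear here. Messenger RNA had been sequenced from HEK-293T cells, an established human embryonic kidney line, that carried a CIRTS-hADAR biosensor. One library came from cells without the small molecule ABA and 1 from cells with it, so both groups carry the biosensor and differ by ABA alone, as far as the labels say. CIRTS proteins are engineered to bind RNA. An ADAR enzyme deaminates adenosine to inosine, and a sequencer reads the inosine as G. Each condition had 1 biological replicate, so no difference has a replicate check, and every interval is at 95% and covers counting error only. The dose and duration of ABA are not given in the sources used here, and the identity of the cells was not checked, since no hg19 gene annotation was used.

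Proteins that enter the secretory pathway fold in the lumen of the endoplasmic reticulum. HSPA5 (BiP) and HSP90B1 (GRP94) are its Hsp70 and Hsp90 chaperones, calreticulin (CALR) and calnexin (CANX) are lectins that hold glycoproteins while they fold, and the P4HB and PDIA family form and rearrange disulfide bonds. When unfolded proteins accumulate, the unfolded protein response raises transcription of many of these genes, partly through the endoplasmic reticulum stress element (ERSE), in which the factor NF-Y binds the CCAAT part and ATF6 acts through the CCACG part.

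HSPA5 lies on chromosome 9 from 127997132 to 128003666 (minus strand), and HSP90B1 on chromosome 12 from 104324112 to 104341703 (plus). CALR lies on chromosome 19 from 13049414 to 13055304 (plus), and CANX on chromosome 5 from 179105629 to 179158642 (plus). P4HB spans chromosome 17 from 79801034 to 79818544 (minus), and PDIA3 chromosome 15 from 44038590 to 44064804 (plus). PDIA4 spans chromosome 7 from 148700154 to 148725733 (minus), and PDIA6 chromosome 2 from 10923519 to 10952960 (minus). These coordinates are hg19, and whether a position is exonic, intronic or in a UTR was not determined. RefSeq names the pseudogenes HSPA5P1, HSP90B2P, HSP90B3P, PDIA3P1 and PDIA3P2, and the labels do not say how reads shared with such copies were placed, so the values of HSPA5, HSP90B1 and PDIA3 are uncertain to that extent.

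The 8 transcripts were among the better covered ones. Their listed positions had a median depth of 29 (no ABA) and 30 (ABA) reads, against 10 in both libraries for nuclear positions as a whole. The spans held 170497 base reads without ABA and 171897 with ABA, of 50748953 and 44914317 nuclear base reads. Reads of the opposite strand made up 0.366% of the reads in the spans and carried 0 G reads in either library, where 865 such reads (no ABA) and 394 (ABA) were counted. At G rates as low as those of the genes given below, so few reads would often hold 0 G, so the strands cannot be compared.

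The ERSE sequences of these genes are shown because transcript abundance of the group is described next. RefSeq promoter windows of GRCh38.p14, from 250 bases before to 50 bases after a transcription start, were found for 7 of the 8 genes. The ERSE, searched on both strands as CCAAT, any 9 bases and CCACG, was present in 5 of those 7 genes, namely HSPA5, HSP90B1, CALR, CANX and PDIA6. Over all RefSeq genes it was present in 0.0916% (25 of 27305). The element was searched because it is known to act on genes of this group, so its frequency here is a description and not a test. By windows it was present in 7 of the 12 of these genes and in 0.0769% (27 of 35116) of all. In the sequences, capitals mark the fixed letters of the motif, and each is printed 5′ to 3′ on the strand named.
HSPA5, GRCh38.p14 chr9:125241386-125241414, minus strand: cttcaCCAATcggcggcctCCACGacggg
HSP90B1, GRCh38.p14 chr12:103930211-103930239, plus strand: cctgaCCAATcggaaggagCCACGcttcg
HSP90B1, GRCh38.p14 chr12:103930316-103930344, minus strand: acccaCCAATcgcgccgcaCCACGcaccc
CALR, GRCh38.p14 chr19:12938379-12938407, minus strand: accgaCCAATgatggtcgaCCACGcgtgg
CANX, GRCh38.p14 chr5:179698773-179698801, plus strand: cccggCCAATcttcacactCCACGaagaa
PDIA6, GRCh38.p14 chr2:10812848-10812876, minus strand: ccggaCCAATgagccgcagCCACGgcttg
The matches of HSPA5, CANX, PDIA6 and the plus-strand match of HSP90B1 read in the direction of the gene, while that of CALR and the minus-strand match of HSP90B1 read against it. The HSPA5 match ended 47 bases before the annotated start. The shorter elements ERSE-II (ATTGG, any 1 base and CCACG) and UPRE (TGACGTGG), also searched on both strands, were found in 0 of the 7 genes, against 0.0696% and 0.927% of all genes and 0.0541% and 0.729% of all windows. These letters come from another genome build than the read counts and were not set against any hg19 position.

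Read depth, the measure of abundance that these files allow, differed in direction among the genes. CALR, PDIA4 and P4HB were deeper with ABA, PDIA3 and PDIA6 slightly so, HSP90B1 was near even, and HSPA5 and CANX were slightly shallower. Depth was taken at positions listed in both libraries and scaled per 1000000 nuclear base reads at such positions. In bulk RNA, fewer cells that express a gene and less RNA per cell cannot be told apart. Since 1 read covers several positions, counting intervals of depth are too narrow. The blocks of a gene are given beside the ratio to show how even it is along the gene. They come from the same 2 libraries and are not replicates, so a difference between the libraries unrelated to ABA would be shared by them. A block joins positions at most 100 nt apart, and blocks with at least 200 reads in each library were used.

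CALR, which binds calcium and monoglucosylated glycoproteins, had 394 base reads per 1000000 without ABA and 473 with ABA, a ratio of 1.2, and 4 of its 4 blocks were deeper with ABA. PDIA4, an isomerase with several thioredoxin-like domains, had 326 and 379, a ratio of 1.16, with 9 of 9 blocks deeper. P4HB, the founding disulfide isomerase and also a subunit of prolyl 4-hydroxylase, had 381 and 439, a ratio of 1.15, with 10 of 10 blocks deeper. In these 3 genes no block went the other way, and their block ratios ran from 1.07 to 1.49.

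PDIA3 (ERp57), which works on glycoproteins held by calnexin and calreticulin, had 263 and 288 base reads per 1000000, a ratio of 1.09. PDIA6 had 321 and 340, a ratio of 1.06. Their blocks were split, with 8 of 12 deeper in PDIA3 and 10 of 12 in PDIA6, and PDIA3 held both low (0.836) and high (1.67) block ratios.

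HSPA5, the chaperone most often used as a marker of the unfolded protein response, had 497 base reads per 1000000 without ABA and 483 with ABA, a ratio of 0.970. Only 1 of its 7 blocks was deeper with ABA, by a ratio of 1.05. HSP90B1 had 750 and 757, a ratio of 1.01, with 9 of 15 blocks deeper. CANX, the membrane-bound lectin, had 1167 and 1120, a ratio of 0.960, with 7 of 14 blocks deeper. The genes with an ERSE match had depth ratios from 0.960 to 1.2. PDIA4, P4HB and PDIA3, for which no match was found, had 1.16, 1.15 and 1.09. Promoter windows were not found for every gene, so a gene without a match may not have been searched. Whether the element bears on the depth ratios was not tested.

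Summed over the list, the depth ratio was 1.04. Of the 83 blocks of the 8 genes, 58 were deeper with ABA, where 51.2% of all 43870 nuclear blocks were. Nuclear blocks with a mean depth of 20 to 50 reads without ABA were deeper in 55.3% of cases. The 83 blocks were not limited to that depth, so this share is not matched to them. A depth over 1.2 times as high was found in 18 of the 83, where 17.3% of all blocks passed that limit. Among blocks with a mean depth of 20 to 50 reads without ABA, 11 of 66 blocks of these genes passed it, against 15.9% of all such blocks. The scaling decides the direction for the genes near 1. With all listed positions used and all listed nuclear reads as the base, a base that alone raises a ratio 1.10 times (0.14 on the log2 scale), HSPA5 came to 1.06 and CANX to 1.05, and the 8 genes were all above 1. With the median of nuclear blocks of mean depth 20 to 50 as the base, HSP90B1 came to 0.988.

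**Figure D1:**
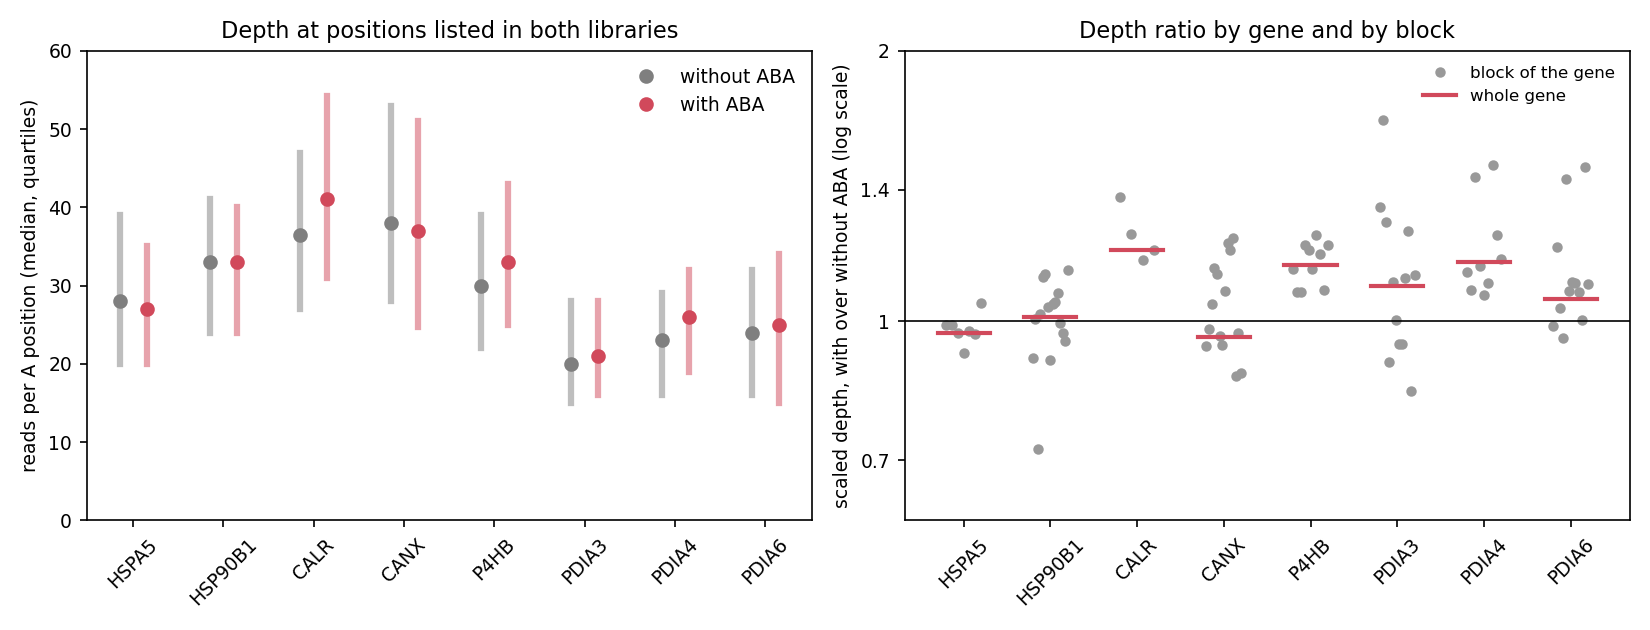
Left, reads per A position (dots are medians, bars span the quartiles over positions listed in both libraries) for each gene without ABA (grey) and with ABA (red). Right, scaled depth with ABA over without ABA on a log axis for each block (grey dots) and each whole gene (red lines). CALR, PDIA4 and P4HB have every block above 1, and HSPA5 has 1 of 7 above 1.

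Mean depth per listed A position is a level per length and allows genes to be ordered. Without ABA the order was CANX (40.9 reads per position), CALR (36.8), HSP90B1 (33.7), P4HB (30.3), HSPA5 (29.7), PDIA6 (24.9), PDIA4 (22.8) and PDIA3 (21.4). With ABA it was CALR (43.1), CANX (38.3), P4HB (34.0), HSP90B1 (33.2), HSPA5 (28.1), PDIA4 (25.8), PDIA6 (25.6) and PDIA3 (22.8). Neighbours in these orders had overlapping quartile ranges over positions, and PDIA3 was lowest in both libraries. Positions with fewer than 6 reads are not listed, which lifts the mean of the shallower genes.

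A-to-G mismatches in the 8 transcripts were more frequent in the ABA library. Summed over all listed positions, 82 of 170445 reads carried G without ABA, 0.0481% (0.0383 to 0.0597), and 153 of 171857 with ABA, 0.0890% (0.0755 to 0.104), a ratio of 1.85 (1.41 to 2.45). The background, which is C or T reads at these A positions, stood at 0.0258% (0.0188 to 0.0347) and 0.0204% (0.0142 to 0.0283), a ratio of 0.789 (0.491 to 1.26). All other nuclear positions had a background of 0.0158% and 0.0176%, a ratio of 1.11 (1.08 to 1.15). Their A-to-G rate was 0.0561% and 0.0953%, a ratio of 1.70 (1.67 to 1.73). The ratio of the 8 genes was 1.09 times that ratio (0.832 to 1.42), and 0.913 times (0.688 to 1.21) once positions whose G share reached 35% in any library, a level that inherited variants can give, were left out of both sets. Neither interval excludes an equal rise.

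**Figure D2:**
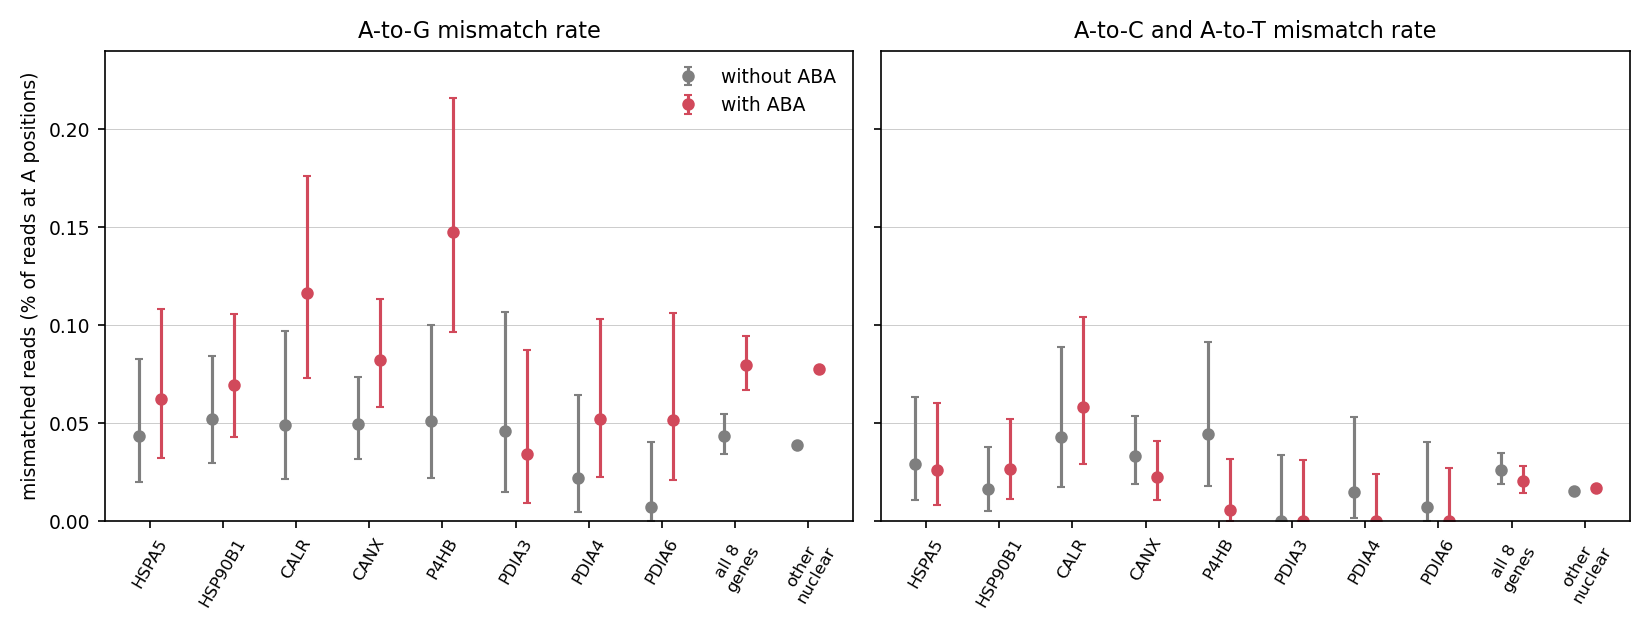
Mismatched reads as a percentage of reads at A positions (vertical axis), for A-to-G (left) and for A-to-C with A-to-T (right), in each gene, the 8 genes summed and the other nuclear positions, without ABA (grey) and with ABA (red). Bars are 95% Clopper-Pearson intervals, and positions at a G share of 35% or more are left out. For the 8 genes the A-to-G rate is 0.0434% and 0.0797%, close to the other nuclear positions. In the right panel the 8 genes show no such rise, at 0.0258% and 0.0204%. The other nuclear positions there have 0.0154% and 0.0171%, a ratio of 1.11 (1.08 to 1.15).

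Among the Hsp-type chaperones, HSPA5 had 9 G reads of 20680 without ABA, 0.0435% (0.0199 to 0.0826), and 12 of 19328 with ABA, 0.0621% (0.0321 to 0.108), a ratio of 1.43 (0.552 to 3.83). HSP90B1 had 16 and 21 G reads, 0.0519% (0.0297 to 0.0843) and 0.0692% (0.0429 to 0.106), a ratio of 1.33 (0.663 to 2.73). In both genes the interval of the ratio includes 1, so no rise was detectable at this depth. Taken as a pair they had a ratio of 1.37 (0.790 to 2.40).

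Of the lectin chaperones, CALR had a ratio with a lower bound just above 1 and CANX an interval that includes 1. CALR went from 8 G reads of 16260, 0.0492% (0.0212 to 0.0969), to 22 of 18936, 0.116% (0.0728 to 0.176), a ratio of 2.36 (1.01 to 6.13). CANX had 24 and 37 G reads, 0.0495% (0.0317 to 0.0736) and 0.0823% (0.0580 to 0.113), a ratio of 1.66 (0.969 to 2.91). The CALR background was the highest of the list with ABA, at 0.0431% and 0.0581%, and position 13054889 alone gave 4 and 3 of its A-to-C reads. As a pair CALR and CANX had a ratio of 1.87 (1.2 to 2.97), which was 1.37 times (0.695 to 2.68) that of HSPA5 and HSP90B1, an interval that includes 1.

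The 4 disulfide isomerases had ratios from 0.744 to 2.90. P4HB had 8 G reads of 15737 without ABA, 0.0508% (0.0219 to 0.1001), and 26 of 17649 with ABA, 0.147% (0.0963 to 0.216), a ratio of 2.90 (1.27 to 7.41). Its A-to-C background went the other way, with 7 reads and 1 read, of which 6 without ABA came from the single position 79818360, listed in that library alone. PDIA3 had 5 G reads and 4 G reads, 0.0457% (0.0149 to 0.107) and 0.0340% (0.00928 to 0.0871), a ratio of 0.744 (0.148 to 3.46), the only one of the 8 below 1.

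PDIA4 had 3 G reads and 8 G reads, 0.0220% (0.00454 to 0.0644) and 0.0523% (0.0226 to 0.103), a ratio of 2.37 (0.569 to 13.9). PDIA6 had 9 and 23 G reads, 0.0647% (0.0296 to 0.123) and 0.169% (0.107 to 0.253), a ratio of 2.61 (1.16 to 6.41). In PDIA6, 8 of the 9 and 16 of the 23 G reads fell on 1 position, and without it 1 G read and 7 G reads remained, a ratio of 7.15 (0.918 to 322).

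The point estimate was thus above 1 in 7 of the 8 genes, and the lower bound of the ratio was above 1 in 3 of them, CALR, P4HB and PDIA6, the last through its 1 position. The CALR bound lay close to 1 and fell below it with reads thinned to the lower depth, at 2.13 (0.869 to 5.69), and with a coverage minimum of 50, at 2.18 (0.628 to 9.51). The 4 isomerases summed had a ratio of 2.27 (1.4 to 3.77), which was 1.66 times (0.824 to 3.33) that of HSPA5 and HSP90B1, so the groups were not separated beyond counting error. P4HB, whose ratio was the highest with all positions kept, had a ratio 1.70 times that of the other nuclear positions (0.772 to 3.77). With positions at 35% or more left out, its level was 1.32 times (0.568 to 2.59) that of the other nuclear positions without ABA and 1.90 times (1.24 to 2.78) with ABA, and that of PDIA3 was 1.18 times (0.384 to 2.76) and 0.438 times (0.119 to 1.12). At positions with 20 or more reads in each library, the level of P4HB was no longer separated, at 0.849 times (0.366 to 1.67) and 1.18 times (0.748 to 1.77), and that of PDIA3 was 0.686 times (0.142 to 2.01) and 0.341 times (0.0703 to 0.997). A low level with ABA at these positions was not particular to PDIA3. It was 0.547 times (0.330 to 0.855) in HSP90B1 and 0.693 times (0.485 to 0.960) in CANX. PDIA4 had 0.434 times (0.159 to 0.945) and PDIA6 0.399 times (0.130 to 0.932). The intervals of HSPA5, at 0.564 times (0.282 to 1.01), and CALR, at 0.890 times (0.544 to 1.38), included 1.

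**Figure D3:**
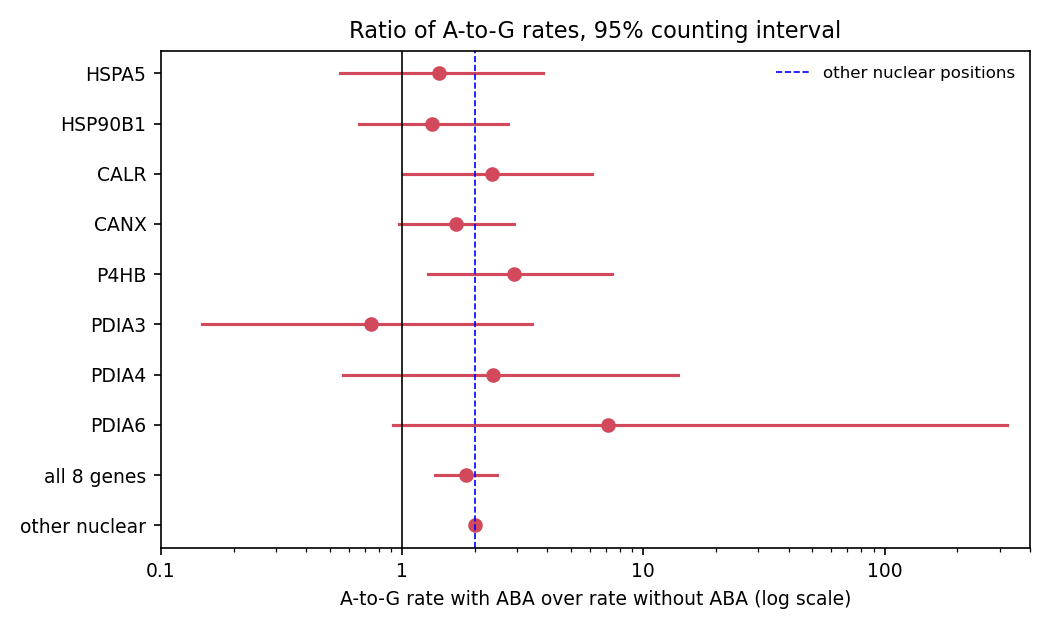
A-to-G rate with ABA over the rate without ABA on a log axis, by gene, for the 8 genes summed and for the other nuclear positions, with positions at a G share of 35% or more left out. Dots are ratios and lines are 95% exact conditional intervals. The interval of each gene includes the dashed line at 2.01, the ratio of the other nuclear positions.

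With a minimum of 20 reads at each position in each library, the level of A-to-G mismatches in these transcripts was below that of other nuclear positions in both libraries. Over these positions, without those at 35% or more, the 8 genes had 0.0460% (0.0356 to 0.0585) without ABA and 0.0842% (0.0700 to 0.1004) with ABA. The other nuclear positions had 0.0673% (0.0658 to 0.0687) and 0.125% (0.123 to 0.127). The level in the 8 genes was 0.684 times (0.528 to 0.871) that of the others without ABA and 0.671 times (0.557 to 0.802) with ABA, while the ratios between libraries were 1.83 and 1.86. Coverage was not matched beyond that minimum, and mean depth at these positions was 37.6 and 38.2 reads in the 8 genes and 33.6 and 34.2 elsewhere. Without the coverage minimum the levels did not separate, at 1.12 times (0.882 to 1.41) without ABA and 1.03 times (0.862 to 1.21) with ABA. The share of positions that held any G read differed less, at 1.75% and 2.98% in the 8 genes against 2.08% and 3.44% of all nuclear positions with 20 reads in both.

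G reads were thinly spread over the transcripts. With the PDIA6 position left out, the 74 G reads without ABA lay on 74 different positions. The 137 with ABA lay on 126 positions, of which 117 held 1 G read and none held more than 3. Elsewhere in the nuclear positions 90.0% and 82.2% of G reads stood alone on their position, against 100% and 85.4% in these genes. A G read in both libraries was found at 7 positions, which is 9.46% of the positions with a G read without ABA and 5.56% of those with ABA. The same shares over the other nuclear positions were 10.03% and 5.67%, so the overlap in these genes was near the background. P4HB held 4 of these 7, at 79801741, 79803066, 79804384 and 79817101. The first of them had 1 G among 44 reads in the library without ABA and 3 among 54 (5.56%, 1.16 to 15.4) in the other, and the next had 1 of 40 and 3 of 47 (6.38%, 1.34 to 17.5). The intervals between libraries overlap at both.

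**Figure D4:**
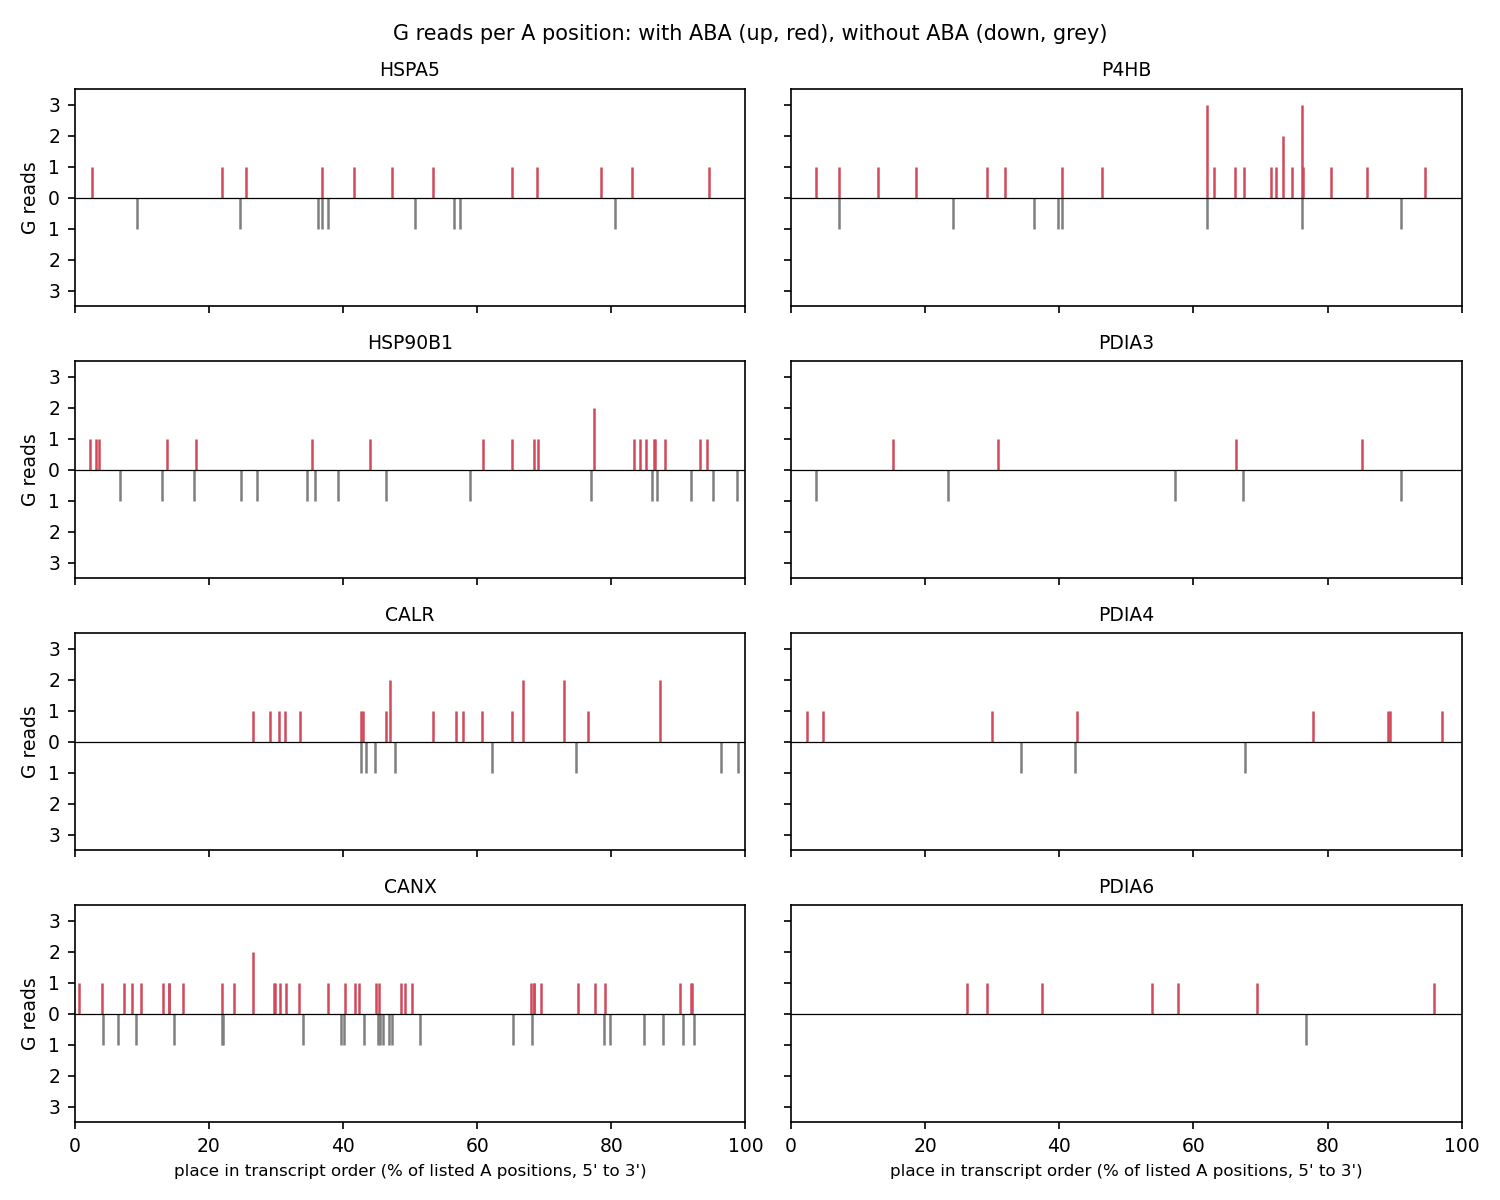
G reads at each A position (vertical axis, reads) against the place of that position in transcript order, as a percentage of the listed A positions of the gene from 5′ to 3′, with ABA upward in red and without ABA downward in grey. The PDIA6 position at 42.1% is left out. Nearly all lines are 1 read high, and P4HB and CALR hold 7 of the 9 positions with 2 or 3 G reads.

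The position of PDIA6, at 10930903 on chromosome 2 (minus strand), was the only edited site of the 8 genes in either library, where edited means a depth of 20 or more, 3 or more G reads and a G share of 10% or more. In the library without ABA, G was read 8 times in 37 (21.6%, 9.83 to 38.2), and in the ABA library 16 times in 38 (42.1%, 26.3 to 59.2), with 0 reads with C or T in either. The intervals overlap, and the two-sided Fisher's exact test between the libraries gave p = 0.083 and an adjusted p of 1 over 359090 nuclear positions. The share of nuclear positions called edited was 0.0197% without ABA and 0.0423% with ABA, and 1 of 4147 and 1 of 4179 covered positions of these genes was. Within 100 nt of it, 33 other A positions, the nearest 1 nt away, had 0 G among 1357 reads in the library without ABA and 1 among 1458 in the other, so the nearby adenosines did not share the signal. Whether it is an edited adenosine or an inherited variant was not tested.

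No position of the 8 genes passed the site test. Of the 3823 positions that each library covered 20 or more times, 0 were called higher and 0 lower (adjusted p below 0.05 and a shift of 10 percentage points or more by Fisher's exact test), where 0% of all nuclear positions were, and 0 reached an unadjusted p under 0.05, where 0.0181% did. By size alone 1 position, that of PDIA6, was at least 10 points higher with ABA, where 0.0234% of nuclear positions were, and 0 were as much lower, where 0.00167% were. Any higher share was found at 112 of the 3823 positions, against 3.3% of nuclear positions, and any lower share at 61, against 1.87%. Since 1 G read in 20 is already 5%, most such differences are of 1 read.

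The position of the lowest p in each gene shows how little single positions carry. In P4HB it was 79801814, with 0 of 31 reads in the library without ABA and 2 of 27 (7.41%, 0.910 to 24.3) in the other (exact p = 0.21). In CALR it was 13054627, with 0 of 43 and 2 of 39 reads (5.13%, 0.627 to 17.3; exact p = 0.22). HSPA5 at 128001609 went from 0 of 48 to 1 of 27 reads, and CANX at 179156837 from 0 of 53 to 1 of 32. In HSP90B1 (104341565), PDIA3 (44063480) and PDIA4 (148709289) the difference was 1 G read without ABA and 0 with ABA. These positions were picked for their p and are given as a description.

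Pooling reads over blocks gave no called stretch and 1 below an unadjusted p of 0.05, in P4HB. Of the 83 blocks, 39 had a G rate that was higher in the ABA library and 20 a lower one, against 26.9% and 12.9% of all nuclear blocks, many of which are shallower and hold no G read. By the block test, Fisher's exact test adjusted by Benjamini and Hochberg's method over 43870 blocks, 0 of the 83 were higher at an adjusted p under 0.05, where 0.0137% of all blocks were, and 0 were lower. An unadjusted p under 0.05 was reached by 1 block, where 0.545% of all blocks were higher at that level. It was the 3′-most block of P4HB, from 79801047 to 79801967, with 2 G of 5465 reads (0.0366%, 0.00443 to 0.132) in the library without ABA and 14 of 6074 (0.230%, 0.126 to 0.386) in the other, a ratio of 6.30 (1.45 to 57.1; exact p = 0.005, adjusted p = 1). In the 3′-most blocks of the other genes, G reads without and with ABA numbered 4 and 11 in CALR, 1 and 5 in HSPA5, 1 and 4 in PDIA4, 1 and 2 in PDIA6 and 11 and 13 in CANX. They numbered 1 and 1 in PDIA3 and 3 and 2 in HSP90B1, so a difference like that of P4HB was not shared by all of these 3′ blocks.

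Along the transcripts the ratio varied from part to part, with intervals that overlap. Positions listed in both libraries were put in transcript order and split into 10 parts of equal number for each gene. In the seventh part, the 8 genes summed had 0.0337% without ABA and 0.118% with ABA, a ratio of 3.5 (1.38 to 10.5), and in the eighth 0.0345% and 0.115%, a ratio of 3.34 (1.28 to 10.2). The fourth part stood at 0.0589% and 0.0594%, a ratio of 1.01 (0.407 to 2.52), and in the last part, at the 3′ end, 0.0749% and 0.0786%, a ratio of 1.05 (0.369 to 2.98). The intervals of all 10 ratios overlap. In the last 3 parts together, the 8 genes had 20 and 42 G reads, of which P4HB gave 2 and 12.

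**Figure D5:**
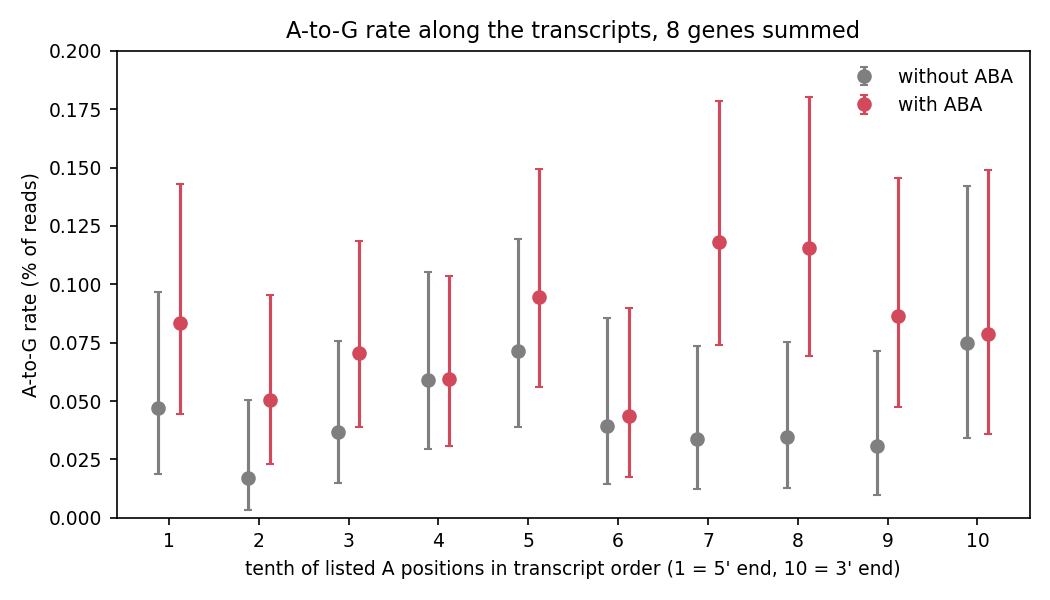
A-to-G rate in percent of reads (vertical axis) in each of 10 consecutive parts of the listed A positions, from the 5′ end (1) to the 3′ end (10), 8 genes summed, without ABA (grey) and with ABA (red). Bars are 95% Clopper-Pearson intervals. The parts numbered 7 and 8 have the highest rates with ABA, 0.118% and 0.115%, and the bars of the libraries overlap in all parts except number 7.

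An adenosine directly 5′ of the position went with a similar pattern in these genes and elsewhere. Where the base before was a listed A, the 8 genes had 0.0419% without ABA and 0.0937% with ABA, a ratio of 2.23 (1.34 to 3.83), and the other nuclear positions also had a ratio of 2.23 (2.17 to 2.31). Where it was not, the ratios were 1.66 (1.16 to 2.40) and 1.91 (1.87 to 1.95). In the 8 genes these intervals overlap, and a base before that is A but under the read cutoff counts as not listed.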

How the data were processed

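For each library the authors deposited raw counts per strand: how many reads showed each base at every listed A (plus) or T (minus) position. The cutoff was 5 reads for a single base, per the file headers. The submitters' processing notes name cutadapt, HISAT2 and the hg19 build, without versions, and the base counter and treatment of duplicates are not given in the sources used here. Minus-strand counts were complemented. The rate of a set is G over A plus G reads, summed. Shares have Clopper-Pearson intervals and ratios exact conditional ones, and reads are not independent molecules, so these intervals are too narrow. Differences between ratios have normal intervals. Site and block tests were fitted on the whole nuclear table and compare the 2 libraries, not the conditions. Both were also run on simulated data with changes far larger than the summed ratios given here. That run does not show how the tests perform on changes this small. The genes, and all lists and tests, were chosen with earlier results of these data known. All 8 genes are named, with every edited site and the position of the lowest p in each gene, while positions of more than 1 G read, the P4HB block, the grouping by role, the promoter motifs, the 1.2-fold depth limit, the level at 20 or more reads and the base before the position were chosen after values were seen. The other genes of the folding pathway and cell type markers listed at the outset need an hg19 annotation and were not used here. Statistics used scipy 1.17.1, tables pandas 2.3.3 and numpy 2.4.6, and figures matplotlib 3.10.9, under Python 3.11.15 with random seed 1.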

Additional observations from a re-analysis of the deposited data

How the results depend on the processing

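The A-to-G ratio of the 8 genes together stayed between 1.72 (without P4HB) and 1.97 (without HSP90B1) in all alternatives run, which changed the positions, the coverage minimum, the depth, the denominator or left out a gene. The number of genes with a ratio above 1 was 7 and became 4 with a coverage minimum of 50, which leaves 458 positions. Of these, HSP90B1 (2.21), CALR (2.18) and CANX (1.67) had a finite ratio, and the other counted gene had G reads only with ABA. The genes no longer counted had no G read left in either library, so none of them fell to a ratio of 1 or below. That minimum also left 0 positions higher by size and 0 edited sites without and with ABA. A change of at least 5 points gave 3 positions higher by size, and a share of at least 5% gave 3 edited sites with ABA. The block test without adjustment gave 1 block. Depth ratios that crossed 1 were HSPA5 (1.06) and CANX (1.05) with all listed positions and HSP90B1 (0.988) on the scale of blocks with a mean depth of 20 to 50 reads, an alternative chosen after seeing the data. These depth ratios were computed on another scaling base, and the base of all listed nuclear reads alone raises a ratio 1.10 times. The cause of the other shifts was not tested, apart from the fewer positions at the higher minimum. No paired analysis was possible because each condition had 1 library. Depth limits single positions most, since the 8 genes had a median of about 30 reads.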
